A study of Homo sapiens with 15 samples.

Results

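These results compare 2 culture times of the solvent control: HPAF-II cells kept in DMSO for 48 hours (4 libraries) and for 24 hours (4 libraries). They were chosen by the names of the peak lists and make up 8 of the 15 chromatin accessibility (ATAC-seq) libraries of a study of Wnt inhibition. HPAF-II is an established human pancreatic adenocarcinoma line, and DMSO is the solvent of the study's inhibitor, so neither group received the drug. The other 7 libraries came from the same line given 1 µM Lgk974, an inhibitor of porcupine, for 24 hours (4 libraries) or 48 hours (3 libraries). They enter here as libraries that did not choose any region, except in 1 alternative that drew the regions from all 15 libraries. Both groups come from 1 cell line, and no untreated or time 0 culture is among the libraries used here. The labels number the replicates 1 to 4 at each time but do not say that they were separate cultures, so the p-values measure the spread between these libraries, which may be technical.

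In ATAC-seq, a transposase cuts DNA where nucleosomes and other proteins leave it free, and cut ends pile up as peaks at promoters, enhancers and insulators. Promoters of widely used genes are open in most cell types, whereas enhancers between and inside genes differ more between cell states. Cells left in culture grow denser and use up their medium, and genes of the cell cycle, of contact sensing through YAP and TEAD, of nutrient stress and of the immediate early response are known to respond to such conditions. A peak list says where accessibility passed the peak caller's threshold. It holds no read counts and hence no sequencing depth, and a region missing from a list may be closed or only below that threshold.

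The lists were merged into union regions (1 bp overlap, chromosomes 1 to 22 and X), and a region counts as called in a library when one of its peaks overlaps it. A region called in all 4 libraries of one time and in none of the other is here called separated by time. Most separated regions were away from gene starts. A few lay on a coding gene's promoter, taken as the 250 bases before an annotated start, and 5 promoters are printed as examples. FOXO1, SLC38A4, NCK1 and MPP2 were under a peak in 4 of 4 libraries at 24 h and 0 of 4 at 48 h. The promoters of FAM107B and MTUS2 had the same calls and are not printed. FLG was under a peak in 4 of 4 libraries at 48 h and only in replicate 3 at 24 h. The FLG region is separated only when that library is left out. Each is a single region over one annotated start, which need not be at an end of the gene, and other peaks can lie close by. The printed starts of MPP2, SLC38A4 and NCK1 are not at an end of the gene, and the MPP2 region lay 7984 bp from the nearest end. A neighbouring FOXO1 region, chr13:40665312-40666321, was called in 8 of 8 libraries. Counting any peak within 1 kb of an end of the gene, FOXO1 and NCK1 had one in 4 of 4 libraries at both times. MPP2 had one in 3 at 24 h and 2 at 48 h, and SLC38A4 in 1 at each. For NCK1, MPP2 and SLC38A4 these peaks are not the ones over the printed starts. SLC38A4, NCK1 and FLG were chosen for display after their values were seen. FOXO1 encodes a forkhead transcription factor held out of the nucleus by insulin signalling, SLC38A4 an amino acid transporter, NCK1 an adaptor protein of receptor signalling, MPP2 a membrane-associated scaffold and FLG filaggrin of the epidermal barrier. The sequences are RefSeq's, build GRCh38.p14, on the gene's strand from 5′ to 3′, and capitals mark motif matches on either strand.
FOXO1, chr13:40666642-40666891, minus strand: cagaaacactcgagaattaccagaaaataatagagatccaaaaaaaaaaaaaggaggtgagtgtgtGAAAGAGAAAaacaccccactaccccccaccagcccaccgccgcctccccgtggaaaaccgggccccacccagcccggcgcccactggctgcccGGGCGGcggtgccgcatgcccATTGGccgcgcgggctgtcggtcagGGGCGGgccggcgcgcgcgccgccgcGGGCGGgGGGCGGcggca
SLC38A4, chr12:46825998-46826247, minus strand: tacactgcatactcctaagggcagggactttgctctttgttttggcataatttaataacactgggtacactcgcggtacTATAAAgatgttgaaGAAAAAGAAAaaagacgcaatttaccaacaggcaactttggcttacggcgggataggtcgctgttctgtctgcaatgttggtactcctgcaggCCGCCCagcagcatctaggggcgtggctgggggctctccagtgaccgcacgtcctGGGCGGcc
NCK1, chr3:136930252-136930501, plus strand: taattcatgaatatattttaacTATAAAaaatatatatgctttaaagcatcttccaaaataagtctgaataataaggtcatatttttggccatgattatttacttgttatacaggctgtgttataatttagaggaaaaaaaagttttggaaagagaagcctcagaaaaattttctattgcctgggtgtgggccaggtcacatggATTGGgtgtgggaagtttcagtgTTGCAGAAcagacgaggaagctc
MPP2, chr17:43901565-43901814, minus strand: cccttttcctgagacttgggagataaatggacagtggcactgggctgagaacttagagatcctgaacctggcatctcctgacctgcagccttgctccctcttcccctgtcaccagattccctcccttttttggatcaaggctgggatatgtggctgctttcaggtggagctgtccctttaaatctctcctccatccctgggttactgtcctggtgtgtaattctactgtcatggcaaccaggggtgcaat
FLG, chr1:152325240-152325489, minus strand: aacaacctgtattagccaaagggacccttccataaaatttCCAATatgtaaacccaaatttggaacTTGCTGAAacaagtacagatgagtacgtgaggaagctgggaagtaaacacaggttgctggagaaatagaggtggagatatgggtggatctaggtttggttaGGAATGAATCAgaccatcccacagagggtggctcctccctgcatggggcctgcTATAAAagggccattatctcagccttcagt

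The motifs searched were the AP-1 site TGANTCA, the TATA box TATAAA, the CCAAT box (CCAAT), the GC box GGGCGG, the E-box CACGTG, the TCF core CTTTGA, the TEAD core GGAATG, the C/EBP form TTNNGCAA, the NF-kB site and the interferon response element, on both strands and with overlaps allowed. The FOXO1 promoter held 4 GC boxes, 1 CCAAT box and 1 interferon response element match. SLC38A4 held 1 TATA box, 2 GC boxes and 1 interferon response element match, and NCK1 held 1 TATA box, 1 CCAAT box and 1 C/EBP match. The MPP2 promoter held none of the motifs. FLG held 1 match each to AP-1, the TATA box, CCAAT, TEAD and C/EBP, and its AP-1 and TEAD matches overlap. Of 22131 coding promoters of this length, 53.7% held a GC box, 32.7% CCAAT, 10.5% the TEAD core, 9.64% the TCF core, 9.0% the TATA box, 7.5% the C/EBP form, 7.37% the E-box, 5.35% AP-1, 2.71% the interferon response element and 1.78% the NF-kB form. A match describes the letters only.

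The size of the lists varied between replicates of one time. Peaks numbered 106105, 104822, 127886 and 76756 in replicates 1 to 4 at 24 h (mean 103892 ± 20959, SD, n = 4) and 91915, 104877, 84856 and 86503 at 48 h (92038 ± 9075, SD, n = 4). The groups overlapped, and the difference of -11854.5 peaks did not pass the two-sided exact permutation test (p = 0.343). Peaks covered 50.7 ± 7.99 Mb at 24 h and 47.4 ± 6.85 Mb at 48 h (SD, n = 4 each; exact permutation p = 0.6). Replicate 3 at 24 h stood apart before any comparison by time: its median peak was 327 bp wide against 409 to 459 bp in the other 7 libraries, its median −log10 q was 8.38 against 12.9 to 16.9, and 41.6% of its regions were called in no other DMSO library against 3.05 to 6.01%. The main results below are therefore also given without it. The labelled cell type showed in the lists: for 13 of 14 pancreatic and epithelial marker genes every library had a peak at most 1 kb from the gene's start or its other end. Of the markers of other cells, 0 of 5 endothelial, 1 of 9 fibroblast, 5 of 10 immune and 2 of 10 gastric genes had one in every library, and CDH5, DCN, MS4A1 and GKN1 had none.

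**Figure D1:**
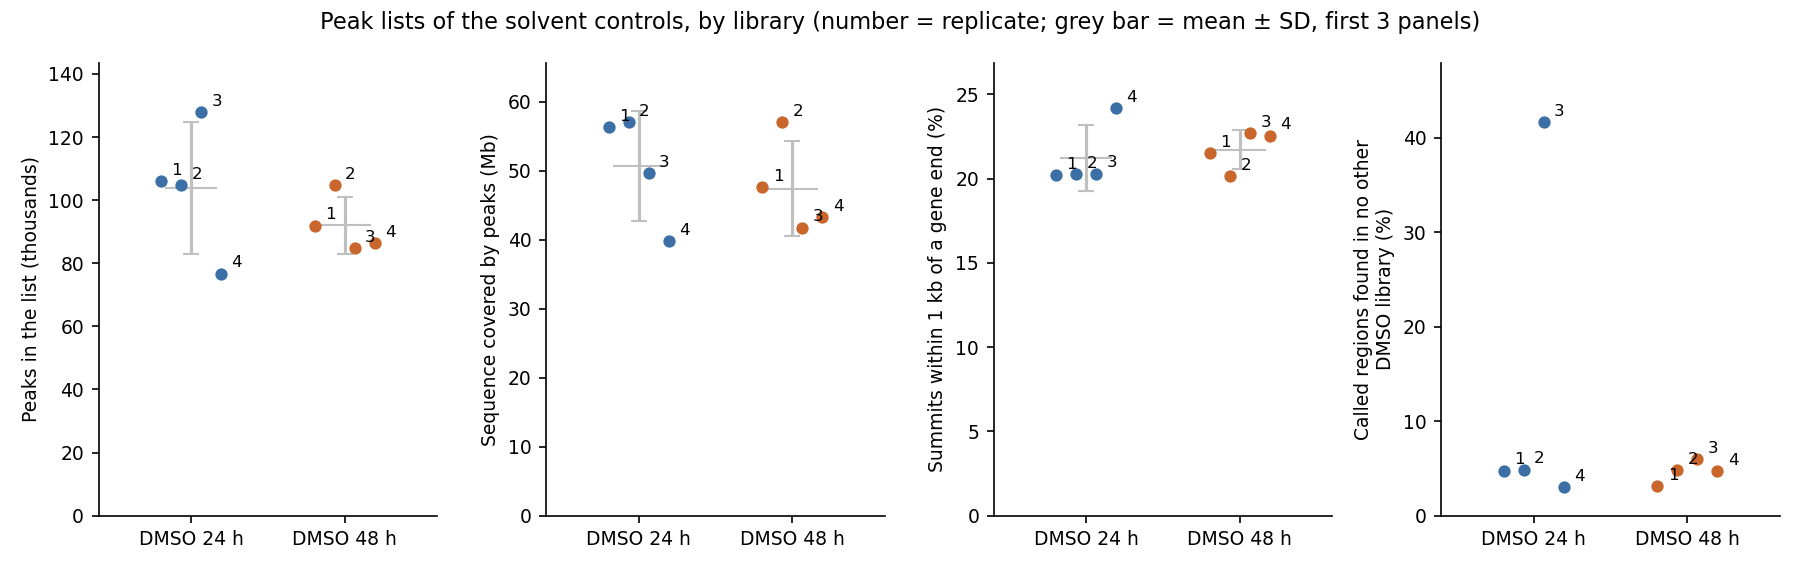
Number of peaks, sequence covered (Mb), share of summits within 1 kb of a gene end (%) and share of called regions found in no other DMSO library (%), 1 point per library, numbered by replicate, with grey bars for mean ± SD in the first 3 panels. The times overlap in all 4 panels, and replicate 3 at 24 h lies at 41.6% in the last panel.

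No difference by time in where the peaks lay passed the test. Summits within 1 kb of either end of a RefSeq gene of any kind made up 20.2, 20.2, 20.3 and 24.2% at 24 h and 21.5, 20.1, 22.7 and 22.5% at 48 h. The difference of 0.487 percentage points was smaller than the SD of either group (1.96 and 1.18; exact permutation p = 0.83, also after adjustment over the 3 location classes). Summits elsewhere inside genes averaged 49.8% at 24 h and 49.6% at 48 h, and those between genes 29.0% and 28.7%. Without replicate 3 at 24 h the gene-end difference was 0.177 points (exact permutation p = 1). Peaks on contigs outside the main chromosomes averaged 90.0 per library at 24 h and 63.8 at 48 h (exact permutation p = 0.0571), and replicate 3 at 24 h alone held 131.

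Pairwise overlap of the called regions was higher within sets of replicate numbers than within a time. The Jaccard index (regions called in both of 2 libraries divided by regions called in either) averaged 0.604 for pairs of the same time and 0.608 for pairs of different times. Pairs within replicates 1 and 2, or within replicates 3 and 4, of either time averaged 0.647, and pairs across these sets 0.576. In the 7 libraries other than 24 h replicate 3 the same contrasts read 0.677 and 0.684 by time, and 0.732 and 0.643 by set. The labels do not say what the 2 sets of replicate numbers stand for, and what sets them apart was not tested.

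**Figure D2:**
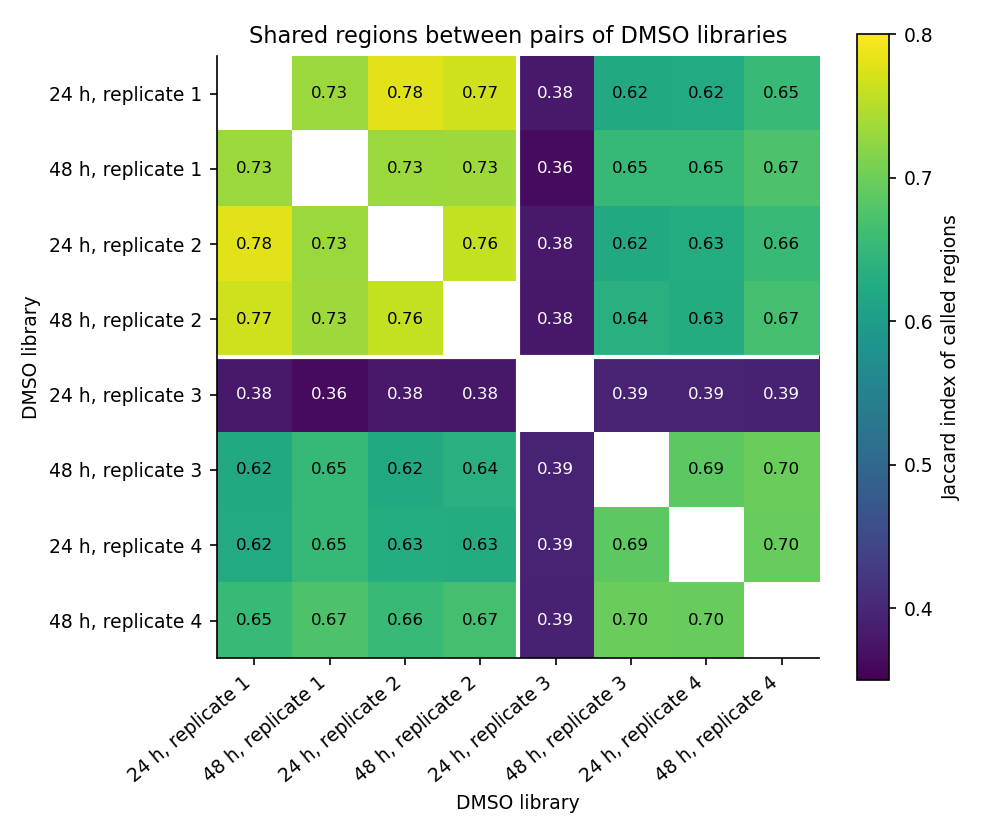
Jaccard index for each pair of the 8 DMSO libraries, as a heat map with the libraries on both axes. Replicate 3 at 24 h forms the darkest row, dark being low, with a mean of 0.383, while the other libraries average between 0.615 and 0.653.

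Of 194968 union regions, 47838 (24.5%) were called in all 8 libraries and 79792 (40.9%) in 1 library. Among the 52692 regions called in 2 to 6 libraries, 102 (0.194%) were called in 4 of 4 libraries at 48 h and 0 of 4 at 24 h, and 109 (0.207%) the other way. The remaining regions of that set were called in both times or in only some libraries of one. Each separated region has the smallest p that 4 against 4 libraries allow (0.0286, two-sided exact permutation test) and no other region has an unadjusted p under 0.05. Of the 52692, 0 passed after Benjamini-Hochberg adjustment (smallest adjusted p = 1). When only same-numbered libraries were exchanged, the smallest p possible was 0.125. Without replicate 3 at 24 h, 127 regions (0.309% of 41139 tested) were called at 48 h only and 242 (0.588%) at 24 h only, again with 0 passing the exact test after adjustment. These include all 102 regions of the first direction and 108 of the 109 of the second, as leaving out a library must, apart from changed region borders.

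The balance of the 2 directions depended on the length of the lists and on single libraries. With full lists it ran from 321 against 202 without 24 h replicate 1 to 118 against 634 without 24 h replicate 4. With every list shortened to its 76679 most significant peaks, 301 regions (0.872% of 34526 tested) were called at 48 h only and 67 (0.194%) at 24 h only. With shortened lists and without replicate 3 at 24 h the counts were 346 (1.27%) and 208 (0.765%). These were largely different regions: 29 of the 102 regions called at 48 h only (28.4%) and 9 of the 109 called at 24 h only (8.26%) stayed separated in the shortened lists. In the full lists only 29 of the 301 and 9 of the 67 had no peak at the other time. The separated regions also came from the weaker end of the lists. On a scale from 0 (most significant peak of a library) to 100 (least significant), the regions called at 48 h only had a median place of 74.2 (range 53.1 to 93.2) and those called at 24 h only 75.0 (45.5 to 94.4).

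The 4 libraries of replicates 1 and 2 shared more regions of their own than the 4 of either time. Their lists held 91915 to 106105 peaks. Those of replicates 3 and 4 held 127886 and 76756 at 24 h and 84856 and 86503 at 48 h. What list length adds to the counts below was not tested. Of the 9713 regions called in exactly 4 of 8 libraries, 4083 (42.0%) were those called in replicates 1 and 2 of both times, 102 (1.05%) those called at 48 h only, 109 (1.12%) those called at 24 h only and 125 (1.29%) those called in replicates 3 and 4 of both times. Within replicates 1 and 2 alone, 1496 regions were called at 48 h only and 3693 at 24 h only. Within replicates 3 and 4 the direction of the excess was opposite, with 4294 at 48 h only and 2259 at 24 h only, and this last pair of counts contains replicate 3 at 24 h.

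The named regions called at 48 h only lay in or near genes of varied function. Place values are on the 0 to 100 scale above and are for 48 h replicates 1 to 4. A region inside both TWF1, which encodes the actin-binding protein twinfilin, and TMEM117, at chr12:43797798-43798108, had places 78.7, 57.0, 77.6 and 77.6. One 2133 bp from the start of EHD4, an endocytic recycling ATPase, at chr15:41974690-41975039 had places 66.2, 54.7, 57.3 and 65.2. One inside SCN10A, a voltage-gated sodium channel, at chr3:38809670-38810085 had places 50.9, 45.3, 60.7 and 68.2. These were middle to weak peaks in every 48 h library. Other regions that were also separated in lists of equal length were one 8724 bp from TGM3, a transglutaminase of the cornified layer, at chr20:2349803-2350184 (59.9, 72.4, 82.4 and 65.2), and one 8972 bp from SPINK6, a serine protease inhibitor of skin, at chr5:148224109-148224510 (72.1, 57.7, 78.4 and 55.2). The region 22107 bp from ELL2, an elongation factor of RNA polymerase II, at chr5:95862565-95862991 had places 66.3, 50.7, 60.3 and 48.4. It was called in 2 of 4 Lgk974 libraries at 24 h and 3 of 3 at 48 h, whereas the SPINK6 region was called in none of the 7.

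Of the regions called at 24 h only, 72 of 109 (66.1%) lay inside genes away from their ends, and of those called at 48 h only 50 of 102 (49.0%), beside 54.8% of all regions tested. With lists of equal length the order was the opposite, 52.2% and 59.5%, and no test was made of these shares. Places are for 24 h replicates 1 to 4. A region inside both IQGAP2, a cytoskeletal scaffold, and F2RL2, a thrombin receptor, at chr5:76617189-76617638 had places 57.0, 59.5, 45.1 and 73.9. The region inside RGCC, a cell cycle regulator, at chr13:41465158-41465582 had places 53.9, 67.5, 27.6 and 69.1. Both were called in 6 of 7 Lgk974 libraries, among them 3 of 3 at 48 h for the IQGAP2 region and 2 of 3 for the RGCC region. The region on the MPP2 promoter printed above, chr17:43901360-43901727, had places 69.2, 66.5, 39.8 and 92.2 and was called in 3 of 4 Lgk974 libraries at 24 h and 0 of 3 at 48 h. A region inside HAPLN4, a hyaluronan link protein of the brain's matrix, at chr19:19259736-19260142 (45.8, 49.8, 28.1 and 58.4) was called in 2 of 4 and 0 of 3. In all 4 of these regions replicate 3 at 24 h had the strongest place.

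**Figure D3:**
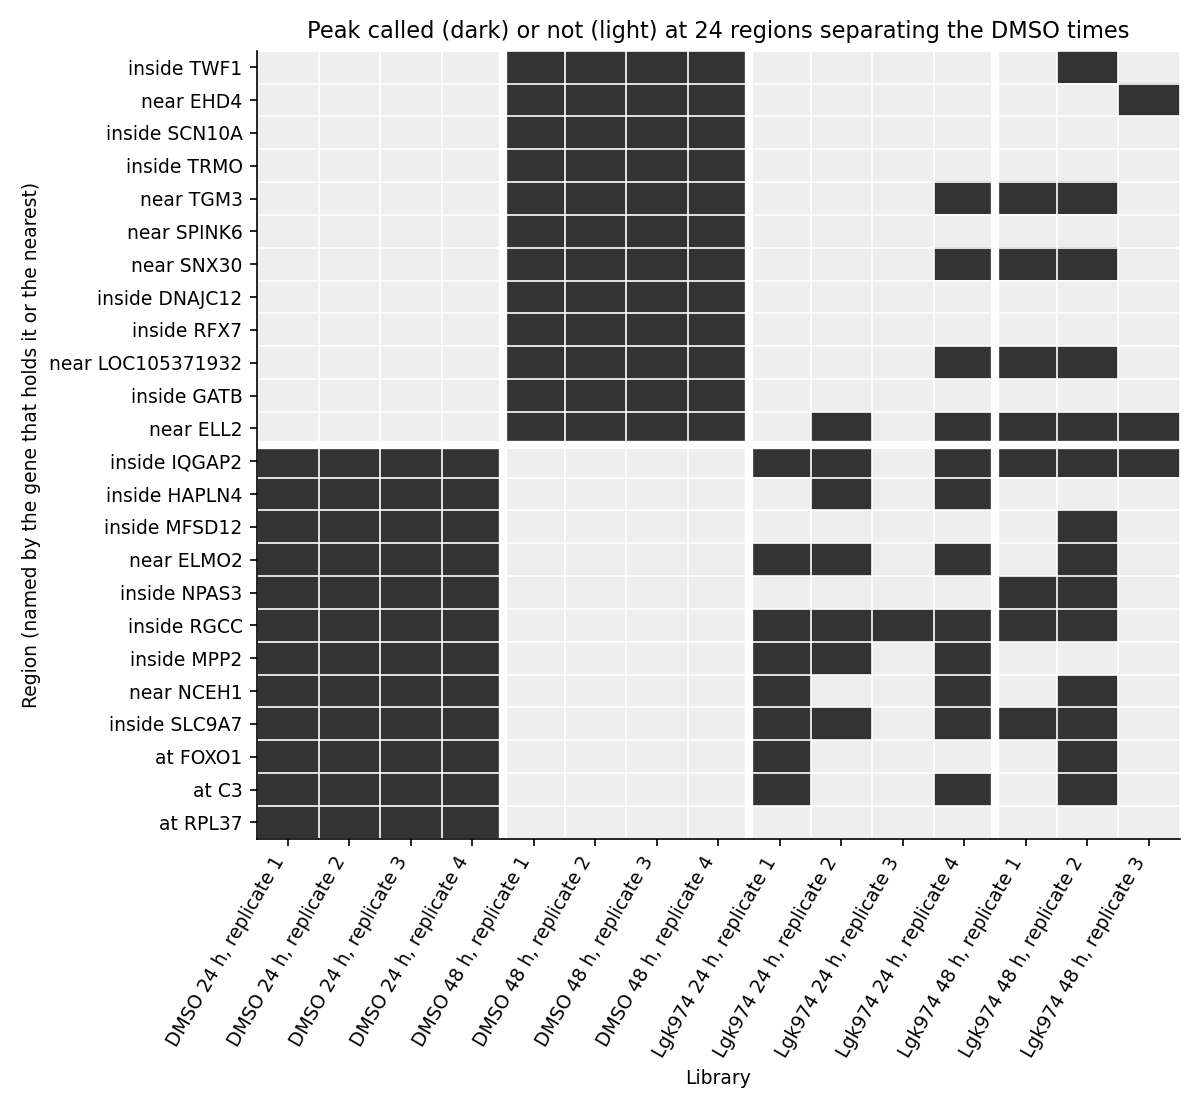
Named regions separated by time in the 8 DMSO libraries (rows), with filled cells where a region is called in a library (columns: 4 DMSO 24 h, 4 DMSO 48 h, then the 7 Lgk974 libraries). The DMSO columns are full for one time and empty for the other because the rule chose them so, while the Lgk974 columns are mixed, with the ELL2 region called in 5 of 7 and the SPINK6 region in 0 of 7.

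At the ends of coding genes, 4 regions called at 48 h only and 4 called at 24 h only lay within 1 kb, and they were singled out after their values were seen where the naming rule did not reach them. The 48 h ones were at S100P, a calcium-binding protein often made by pancreatic cancer cells (chr4:6696859-6698272; places 85.3, 68.9, 71.9 and 76.2), at ANO1, a calcium-activated chloride channel (70.8, 97.7, 60.7 and 68.4), at HEXIM1, an inhibitor of the elongation kinase P-TEFb (94.8, 77.9, 82.8 and 71.3), and at TRMT2A and RANBP1. None was a strong peak in any 48 h library. The 24 h ones were at FOXO1 (chr13:40666369-40666928, over the promoter printed above; 88.5, 92.3, 40.8 and 85.2), at C3, the central complement component (chr19:6720630-6720981; 73.6, 86.3, 62.0 and 70.2), at RPL37, a ribosomal protein (chr5:40825420-40825941; 94.7, 99.1, 59.2 and 79.9), and at REM2, a small GTPase. With lists of equal length none of these 8 regions was separated. Among these genes, only ANO1 and C3 lacked any peak within 1 kb of an end at the other time; S100P, HEXIM1, TRMT2A, RANBP1, FOXO1, RPL37 and REM2 had one in 4 of 4 libraries at both times. Without replicate 3 at 24 h there were 6 regions of the first kind, adding FLG and LRRC25, and 15 of the second, adding among others TFE3, a transcription factor of lysosome genes, and IGFBP1, a binding protein of insulin-like growth factors. Replicate 3 at 24 h had a weak peak at FLG (place 89.6), a middle one at LRRC25 (49.3) and a stronger one at IGFBP1 (27.8). The IGFBP1 region was thus under a peak in 4 of 4 libraries at 24 h. With all 8 libraries, where region borders differ, it was not among the separated regions.

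Counted by gene, and taking any peak within 1 kb of either end, 12133 of 19970 coding genes (60.8%) had an end called in all 8 libraries. Of 1646 genes tested, ANO1 (1 gene, 0.0608%) had an end called at 48 h only, and FBXO41, LOC105370706, HCN2 and C3 (4 genes, 0.243%) at 24 h only. With the exact permutation test, 0 genes passed after adjustment, and these 5 are the ones at an unadjusted p under 0.05. With replicate 3 at 24 h left out they were 3 of 1207 (0.249%; FLG, ANO1 and LRRC25) and 7 (0.58%). With lists of equal length, 0 and 5 of 1386 (0% and 0.361%) were separated, and none of the 5 genes above was among them. Lists of equal length without that library gave 3 and 9 of 1080 (0.278% and 0.833%). None of the separated genes was among 478 genes on the 20 lists drawn up for this comparison. CDKN1A, which encodes the cell cycle inhibitor p21, had an end called in 4 of 4 libraries at 48 h and in replicate 1 only at 24 h (exact permutation p = 0.143, unadjusted). MUC5AC, a secreted mucin, had one in 3 of 4 at 24 h and 1 of 4 at 48 h (exact permutation p = 0.486, unadjusted).

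The Lgk974 libraries took no part in choosing the separated regions. The regions called at 48 h only in DMSO were called in 14.7, 21.6, 0 and 28.4% of cases in Lgk974 24 h replicates 1 to 4, and in 42.2, 45.1 and 9.80% in the 3 Lgk974 48 h libraries. The regions called at 24 h only in DMSO were called in 56.0, 53.2, 9.17 and 56.9%, and in 41.3, 66.1 and 5.50%. Over all 52692 regions tested, the same libraries called 46.0, 50.4, 6.94 and 45.0%, and 54.5, 63.5 and 7.91%. The regions called at 48 h only thus lay below this rate in every Lgk974 24 h library and in 2 of 3 at 48 h. The regions called at 24 h only lay above it in 4 of 4 at 24 h and 1 of 3 at 48 h, but when chosen without DMSO 24 h replicate 3 they lay above it in 1 of 4 at 24 h (46.3, 49.2, 6.20 and 52.1% beside 47.9, 53.0, 6.25 and 44.7% of the 41139 tested). Per library, the first share minus the second was -41.3, -31.6, -9.17 and -28.4 percentage points at 24 h and 0.872, -21.0 and 4.30 at 48 h. The highest 24 h value, -9.17, came from replicate 3, where both shares were low, and lay above the lowest 48 h value. Without DMSO 24 h replicate 3 in the choice, the differences were -25.8, -20.0, -6.20 and -16.6 at 24 h and 5.92, -10.1 and 8.43 at 48 h, so 1 library of each time overlapped again. These shares are descriptions with no test.

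**Figure D4:**
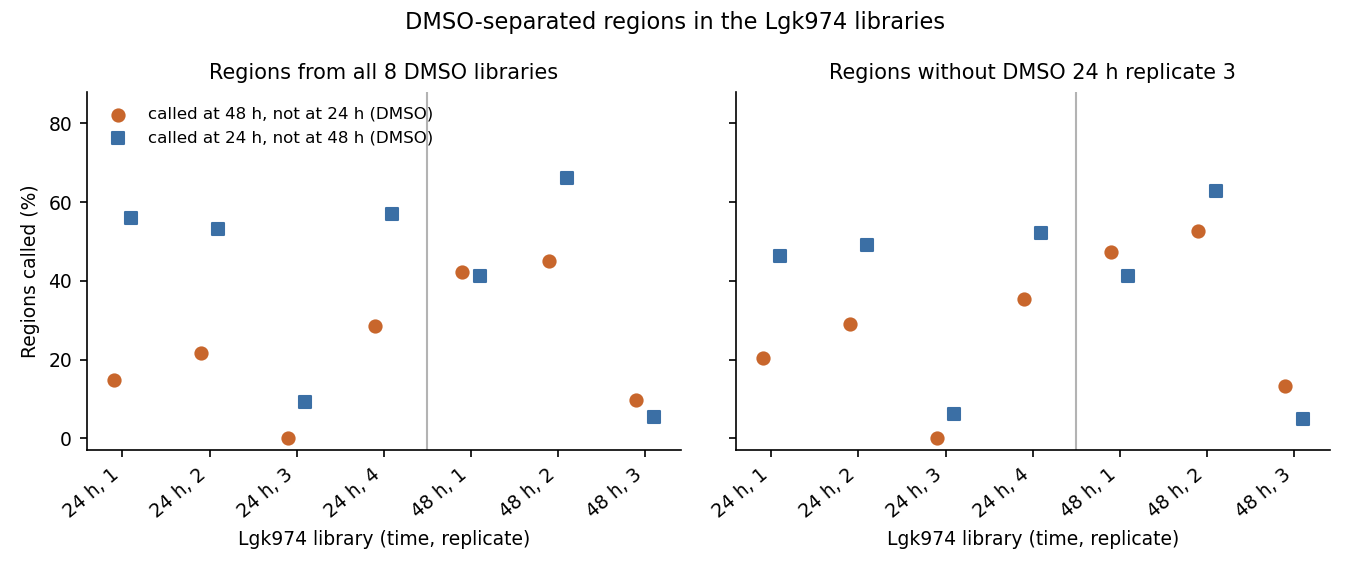
Share (%) of the separated DMSO regions called in each of the 7 Lgk974 libraries, regions called at 48 h only and at 24 h only drawn as separate points, for the choice from all 8 DMSO libraries and for the choice without DMSO 24 h replicate 3. The 24 h-only regions lie above the 48 h-only regions in every Lgk974 24 h library, while the 48 h libraries are mixed.

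Regions called in every library were compared by rank. Within each library the regions called in all 8 were ranked by their strongest peak's −log10 p, rank 1 being the most significant, and the change is given on the −log2 rank scale, so that a positive value is a stronger place in the list at 48 h. Of 47838 regions, 0 passed an adjusted p of 0.05 by limma in either direction (0% called), with a smallest adjusted p of 0.854. At an unadjusted p under 0.05 were 1564 regions (3.27%) ranked higher and 999 (2.09%) ranked lower at 48 h. Without replicate 3 at 24 h, 0 of 57823 passed (smallest adjusted p by limma 0.141), with 2066 (3.57%) and 1593 (2.75%) at an unadjusted p under 0.05. By location, regions at gene ends had a median change of -0.09, regions inside genes of -0.0022 and regions between genes of 0.00784. The median rank at gene ends did not differ by time beyond the spread of libraries (exact permutation p = 0.4; without replicate 3 at 24 h the median change was -0.02 and p = 0.686).

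Fits that also took up the difference between replicates called a few regions, only once replicate 3 at 24 h was left out. With the replicate number as a block, 3 of 57823 regions (0.00519%) ranked higher at 48 h and 0 (0%) lower (limma, smallest adjusted p = 0.00198), with 5.23% and 3.73% of all regions at an unadjusted p under 0.05. Replicate 3 at 48 h then has no partner and adds nothing to the comparison. The 3 were inside MON2, a protein of Golgi trafficking, 68523 bp from TMPRSS5, a membrane serine protease, and near MXRA5. With a term for replicates 1 and 2 against 3 and 4, 66 regions (0.114%) ranked higher and 6 (0.0104%) lower, with 5.81% and 4.65% at an unadjusted p under 0.05. The block and the term were both added after the data had been seen. The same fits over all 8 libraries called 0 (smallest adjusted p 0.308 with the block and 0.299 with the term).

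The values behind these calls were as follows, ranks being out of 57823 and for 24 h replicates 1, 2 and 4 and then 48 h replicates 1 to 4. Near TMPRSS5 (chr11:113618244-113619027) the ranks were 24389, 23449 and 27592 at 24 h and 2570, 2610, 6063 and 7806 at 48 h, a change of 2.73 ± 0.30 (SE; adjusted p by limma 0.000429 with the term). Inside MON2 (chr12:62594575-62595352) they were 38049, 29223 and 41056 against 6239, 5695, 13661 and 11059, a change of 2.19 ± 0.26 (adjusted p by limma 0.00061). All 48 h libraries ranked both regions above all 24 h libraries. The ranks of the 2 times did not overlap in 62 of the 66 higher and 6 of the 6 lower regions, which the fit on these same ranks chose. Over all 57823 regions, 3.99% were ranked higher and 3.07% lower at 48 h without overlap. Near TNC, which encodes the matrix glycoprotein tenascin-C, it did not: the ranks were 7487, 11210 and 27198 against 1806, 2340, 4540 and 10708 (2.08 ± 0.34).

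Among the higher-ranked regions were some in or near transcription factor and receptor genes, singled out here after their values were seen. A region inside GATA6, an endoderm transcription factor (chr18:22179021-22179672), had ranks 32060, 27141 and 21532 at 24 h and 7793, 9045, 11450 and 11864 at 48 h (1.44 ± 0.26; adjusted p by limma 0.0349). A region 213702 bp from KLF4, a factor of epithelial differentiation (chr9:107703471-107704105), had ranks 20233, 19597 and 31401 against 9937, 7528, 9641 and 13354 (1.31 ± 0.26). Both were ranked higher by every 48 h library, though KLF4 is only the nearest coding gene. Regions inside LGR4, an R-spondin receptor (48277, 53953 and 53624 against 24381, 29651, 30949 and 31935), inside OVOL2, a repressor of epithelial to mesenchymal transition (47010, 52138 and 57678 against 26219, 23487, 40755 and 43341), and 28648 bp from TEAD1, the DNA-binding partner of YAP (49679, 53833 and 57218 against 27507, 30124, 41306 and 37948), moved up from the bottom of the list. All 3 were ranked higher by every 48 h library. A region 121623 bp from NR3C1, the glucocorticoid receptor gene, had ranks 48078, 36808 and 56350 against 15137, 16311, 27981 and 22945 (1.31 ± 0.21).

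Calls in both directions lay in or beside the interferon gene cluster on chromosome 9. A region 9296 bp from IFNA5 (chr9:21294206-21295030) had ranks 7381, 6856 and 6758 at 24 h and 892, 2010, 1589 and 1598 at 48 h (2.28 ± 0.39; adjusted p by limma 0.0274). A region 19449 bp from IFNB1, the interferon beta gene (chr9:21056803-21057655), had ranks 11692, 6648 and 5842 against 22236, 19278, 18409 and 19196 (-1.41 ± 0.27; adjusted p by limma 0.0418). Neither lay at a gene end of those genes, and the region near IFNA5 stood within the first 2010 of 57823 in every 48 h library. IFNA5 was named by the rule for the smallest p with all 8 libraries, where its change was 2.35 ± 0.45. The lowest adjusted p among the 6 lower regions was near ME3, a mitochondrial malic enzyme (chr11:86726077-86726857), with ranks 6605, 7735 and 3105 against 23551, 20963, 14424 and 13993 (-1.86 ± 0.27; 0.0125 by limma). The others were inside NETO1 and CAMKMT and near POU3F3 and LOC124901868.

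**Figure D5:**
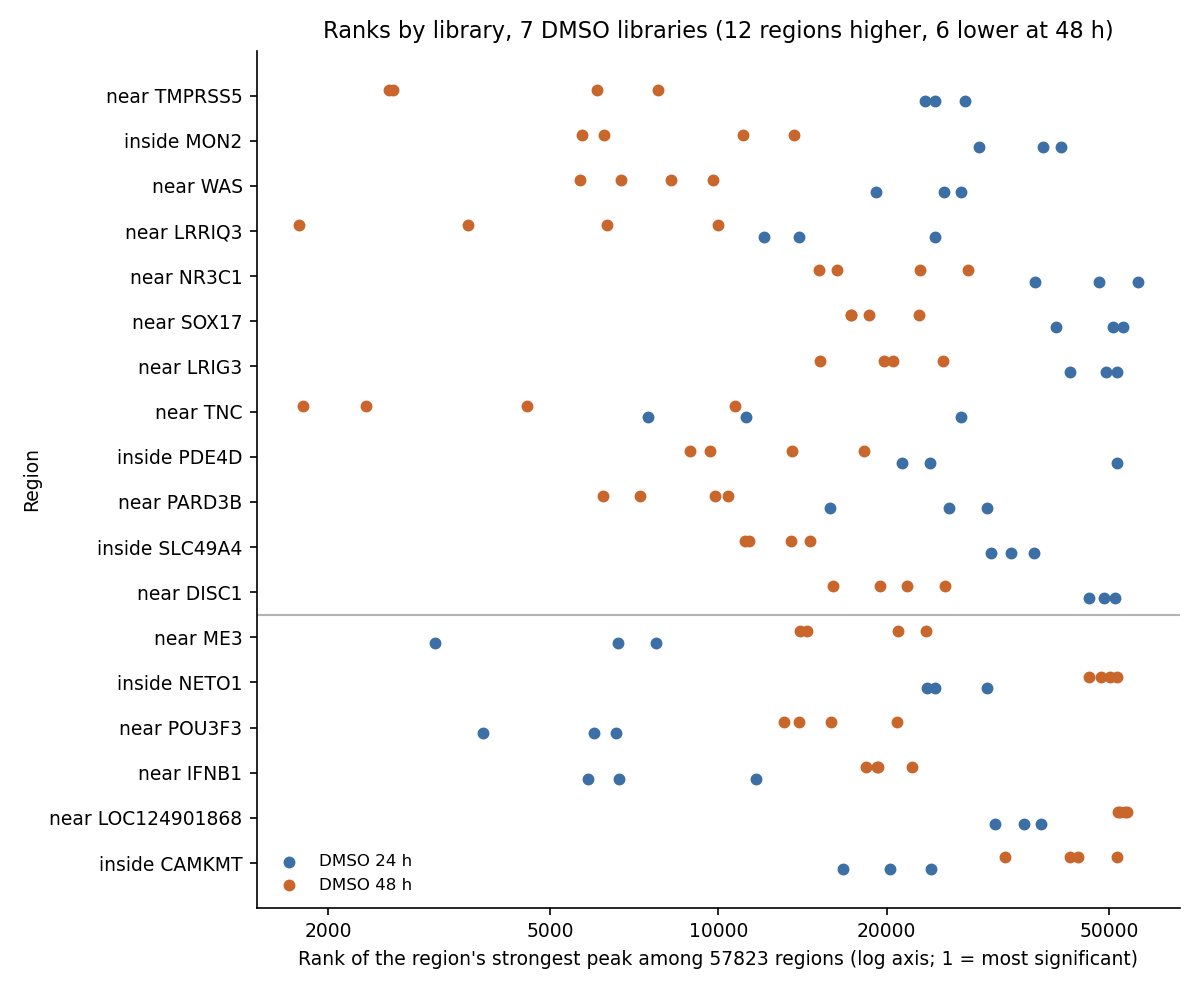
Rank (log axis, 1 = most significant of 57823) of 12 regions ranked higher and 6 ranked lower at 48 h in each of the 7 DMSO libraries other than 24 h replicate 3, from the fit with a term for replicates 1 and 2 against 3 and 4. The times do not overlap except at the region near TNC.

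The 72 regions were seldom at gene ends. Of the 66 higher ones 7 lay within 1 kb of an end of a gene of any kind, 35 elsewhere in genes and 24 between genes. The 6 lower ones counted 0, 3 and 3, beside 29.5, 44.5 and 26.0% of all 57823 regions. Their median changes were 1.26 (0.65 to 2.73) and -1.21, beside -0.00756 over all regions.

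The drug-treated libraries gave a further reading of the same regions. Of the 66 higher regions 36 were called in all 7 Lgk974 libraries, and 32 of these ranked higher in the Lgk974 48 h libraries than in the 24 h ones (median change 0.54), beside 50.1% of all regions. The 4 lower regions with a value all ranked lower (median -0.59). Lgk974 replicate 3 of each time had low shares of called regions above, and without both the counts were 47 of 50 higher (median 0.45; 49.1% over all regions) and 6 of 6 lower (-0.48). Without both, a library of the set of replicates 3 and 4 remained at 24 h only, so the times were not balanced by set. What this adds to the counts was not tested. Single regions did not all follow: the IFNA5 region changed by -0.33 in the 7 Lgk974 libraries, against 2.28 in DMSO, while the ME3 region changed by -1.89 and the TNC region by 0.86. No DMSO library enters these values, and no test was made of them.

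At coding gene ends, the 20 gene lists showed few regions with an unadjusted p under 0.05, and none passed adjustment (adjusted p by limma at least 0.854 with all 8 libraries). The background was 68 of 11971 such regions ranked higher (0.568%) and 235 ranked lower (1.96%), with a median change of -0.12. YAP and TEAD target genes had 1 higher and 0 lower of 27 (median -0.17), AP-1 and immediate early genes 1 and 0 of 41 (-0.02), replication and mitosis genes 1 and 1 of 29 (-0.20), amino acid and ER stress genes 0 and 2 of 26, and Wnt pathway genes 1 and 1 of 26. Hypoxia, sterol synthesis, NF-kB, mucin, pancreatic transcription factor, circadian and housekeeping lists had 0 and 0. In the wider neighbourhood, up to 50 kb from the genes, the background was 3.5% higher and 2.06% lower of 24662 regions, and mucin and secretory genes had 8 and 3 of 109, epithelial junction genes 7 and 2 of 178, AP-1 and immediate early genes 5 and 0 of 142, and pancreatic and endoderm transcription factors 3 and 2 of 94. Leaving out replicate 3 at 24 h, with a background of 3.59% and 2.9% of 30267, these lists had 4 and 4 of 130, 5 and 3 of 216, 6 and 0 of 157, and 8 and 2 of 118. The shares lay around the background, and of these 4 lists the one with the most regions ranked higher was not the same in both. Among the lists not given here, NF-kB and housekeeping genes had the most ranked higher with all 8 libraries, 6 and 3 of 88 and 6 and 1 of 93. Leaving out replicate 3 at 24 h, they had 3 and 4 of 107 and 3 and 2 of 110. The interferon-stimulated genes had, at their ends, 0 and 0 of 32, with a median of 0.09, and 0 and 0 of 34 with a median of -0.0043 without replicate 3 at 24 h.

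Cell cycle genes with the smallest p went both ways. The region at CCNB2, a mitotic cyclin, had ranks 25586, 29071, 36335 and 27668 at 24 h and 14679, 11078, 15932 and 11959 at 48 h, a change of 1.15 ± 0.25 (SE; unadjusted p by limma 0.000392, adjusted 0.854). The region at MCM5, a subunit of the replicative helicase, had ranks 3834, 4292, 4911 and 4624 against 8147, 6116, 10440 and 7977 (-0.87; unadjusted p by limma 0.0303). The times did not overlap at either gene, and neither passed adjustment. CCND1, a cyclin of the G1 phase, had ranks 3259, 6713, 6617 and 4706 against 1014, 3435, 1867 and 1465 (1.54 ± 0.51), with 1 library of each time overlapping.

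The amino acid and ER stress list had 2 regions at an unadjusted p under 0.05 with a lower rank at 48 h, and neither passed adjustment. PSAT1, a serine synthesis enzyme, had ranks 4040, 3704, 1151 and 3641 at 24 h and 8223, 6168, 5960 and 6589 at 48 h (-1.25 ± 0.47; unadjusted p by limma 0.0193). DDIT4, an mTORC1 inhibitor induced by stress, had ranks 5721, 9815, 1601 and 5701 against 15109, 13673, 9473 and 9992 (-1.31). Replicate 3 had the strongest 24 h rank at both, and without it PSAT1 changed by -0.83 and DDIT4 by -0.82. SQSTM1, an autophagy receptor, had ranks 27631, 25377, 30852 and 14192 against 12696, 14930, 15965 and 10898, a change of the other sign (0.80) with overlapping times.

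Leaving out replicate 3 at 24 h, the background at coding gene ends was 122 of 12433 higher (0.981%) and 247 lower (1.99%). The immediate early list then had 3 higher and 0 lower of 44 (median 0.10): EGR1 (0.73), NR4A1 and JUN (0.47; ranks 46434, 38947 and 31987 against 26100, 28270, 31340 and 26415). DSP, the desmosomal plaque protein desmoplakin, had ranks 42987, 40538 and 27933 against 13088, 18683, 17103 and 18626 (1.13 ± 0.27; unadjusted p by limma 0.000437, adjusted 0.346). BMAL1, a core clock factor, had ranks 4801, 4002 and 5669 against 2468, 2236, 2803 and 1905 (1.04 ± 0.41; unadjusted p by limma 0.0198). Both genes were ranked higher by every 48 h library. Replicate 3 at 24 h ranked BMAL1 at 1124, above every 48 h library, and with it the change was 0.52 (unadjusted p by limma 0.366).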

How the data were processed

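ATAC-seq peaks were called per library and deposited by the authors as MACS2 peak lists on hg38, per the submitters' processing notes, which also name Trimmomatic, Bowtie2, Picard, SAMtools and bedtools (versions not given in the sources used here). Each deposited peak carries a score, a fold enrichment (ratio), −log10 p and −log10 q. No counts are used, so depth is unknown. In one 48 h list, 1 damaged line was read as chromosome 1. Gene positions and promoters are RefSeq's, GRCh38.p14.

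Regions, calls, overlaps and exact permutation tests were computed with Python 3.11.15, numpy 2.4.6, pandas 2.3.3 and scipy 1.17.1, and ranks with limma 3.58.1 (R 4.3.3, trend fitted, Benjamini-Hochberg adjustment at 0.05). The rank script was tested on simulated data. Regions called in 2 to 6 of 8 libraries were tested for calling, since others differ by at most 1 library between the times. Alternatives were lists of equal length, −log10 q of at least 5, peaks covering 50% of a region, and windows reaching 250 bp to each side of summits. Further ones were regions drawn from all 15 libraries, gene ends within 3 kb, other rank fits and leaving out each library.

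The members and gene lists were chosen with earlier results of these data known. The genes named are 12 separated regions per direction (first those also separated in lists of equal length, nearest to a coding gene), the 12 regions of smallest p per direction, up to 3 genes per list and 15 genes always checked; others were chosen after their values were seen and are marked so. Same-numbered libraries deviated together (r of rank deviations 0.336, 0.273, 0.372 and 0.161), so tests paired by replicate number were run as an alternative. The main tests did not pair the libraries. Different numbers of the sets 1 and 2 or 3 and 4 deviated together as well (24 h replicate 1 with 48 h replicate 2, 0.350; 2 with 1, 0.322; 3 with 4, 0.302), and the own number was the highest for 24 h replicates 3 and 4 only.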

Additional observations from a re-analysis of the deposited data

Results flagged for a closer look

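In 7 of 24 groups of 4 libraries 1 value lay far from the other 3, where chance gives about 1 in 20. Of these, 4 belong to DMSO 24 h replicate 3: its median peak width of 327 bp, its 131 peaks on contigs outside the main chromosomes, its mean Jaccard index of 0.383 with the other 7 libraries and the 41.6% of its regions called in no other DMSO library. DMSO 24 h replicate 4 had the highest share of summits within 1 kb of a gene end among the 24 h libraries, 24.2%, and also the shortest list. Lgk974 24 h replicate 3 held the lowest share, among the Lgk974 24 h libraries, of the regions called at 24 h only in DMSO. It was 9.17% with all 8 DMSO libraries and 6.20% when DMSO 24 h replicate 3 was left out of the choice. Over all regions tested, the same library called 6.94% and 6.25%, so its share was low at regions of any kind.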

How the results depend on the processing

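Depth is unknown, and with 4 libraries a time no single region can pass adjustment over all regions on calls alone, so the 0 calls say nothing about stability. The sequence covered by peaks changed sign to 0.0800 Mb with lists of equal length (exact permutation p = 1). The share of summits within 1 kb of a gene end changed sign to -0.737 points there (exact permutation p = 0.429) and to -0.0417 with replicate 3 at 24 h also left out (0.971). Regions called at 48 h only numbered 301 and 346 under those settings and 118 to 321 when single libraries were left out. Regions called at 24 h only numbered 67 and 208, and 149 (without 48 h replicate 3) to 634 (without 24 h replicate 4). Ranked regions were 0 under every planned setting; the settings chosen after seeing the data, without 24 h replicate 3, gave 3 higher with the replicate block, and 66 higher and 6 lower with the term for replicates 1 and 2 against 3 and 4, while array weights gave 0. Genes with an end called at 48 h only numbered 0 (equal lists), 0 (−log10 q of at least 5), 2 (windows), 0 (ends within 3 kb) and 3 (equal lists, 24 h replicate 3 left out), and 1 to 4 with single libraries left out. Those called at 24 h only numbered 10 with 3 kb and 9 with equal lists without 24 h replicate 3, and 6 to 34 with single libraries left out. The region near SCARB1, not past any threshold, changed its rank sign to 0.040 with regions drawn from all 15 libraries. With the replicate block over all 8 libraries, 0 regions ranked higher and 0 lower, the peak difference of -11854.5 had an exact p of 0.5, and calls at named regions had p = 0.125, the smallest possible; pairing changed no other call. The causes were not tested.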
